A study of Sus scrofa with 16 samples.

Results

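Among the accessible chromatin regions of newborn pig liver, 1672 were also called in newborn spleen, in no other newborn tissue profiled, and no longer in liver at 28 or 180 days. They were chosen as peaks of the newborn liver list on chromosomes 1 to 18 that overlapped a newborn spleen peak by at least 1 bp. They overlapped no newborn heart, kidney, lung or muscle peak and no liver peak of either later age. The newborn liver list held 120012 peaks, of which 115504 lay on these chromosomes, so the regions made up 1.45% of the peaks examined. "Lost" is used here for a peak that was not called at the later ages, which is not a measurement of closed chromatin. The members were chosen by these calls, so the calls and their strength are a description.

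Chromatin accessibility was measured by ATAC-seq, in which a transposase inserts adaptors into open DNA, in 16 libraries. The animals were female domestic crossbred pigs, described in the methods as Berkshire and Tibetan hybrids. Each group had 2 biological replicates, merged by the authors into 1 list of peaks. The groups were newborn liver, spleen, heart, kidney, lung and skeletal muscle (day 0 in the labels), suckling liver at 28 days and adult liver at 180 days. By the methods, the newborn tissues came from the same pair of full sibs, so newborn liver and spleen share animals. The labels name no treatment. The tissues were whole, so fewer cells of a type and less open chromatin per cell cannot be told apart. The lists held from 57126 peaks in muscle to 141689 in suckling liver, and they give no read counts, so no depth was computed.

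The fetal liver is the main site where red blood cells form before birth, and blood formation moves to the bone marrow around the time of birth. The spleen of a newborn can hold red cell precursors as well, along with many immune cells. In red cell precursors the factor GATA1 binds DNA words with a GATA core, often in a complex in which TAL1 and its partner contact a CTG a short distance away. KLF1 and NFE2 bind other sites in the same regulatory regions, and the targets include the globin genes, the enzymes of haem synthesis and the proteins of the red cell membrane.

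Sequences are shown first for members that carry the pair of words of that complex, CTG and AGATAA separated by 7 or 8 bases. They were read from Sscrofa11.1 on the plus strand, with the paired words in capitals and 30 bases on either side. A pair in the other orientation reads TTATCT, then CAG. The members lay beside NFE2 (chr5:19497866-19497942), RHAG (chr7:43737143-43737219) and BPGM (chr18:14599449-14599525), and in introns nearest to SSBP3 (chr6:157922271-157922347) and HECTD4 (chr14:39361594-39361670).
NFE2: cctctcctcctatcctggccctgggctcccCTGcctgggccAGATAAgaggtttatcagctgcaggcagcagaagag
RHAG: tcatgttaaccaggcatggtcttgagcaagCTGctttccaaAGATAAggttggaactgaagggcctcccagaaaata
BPGM: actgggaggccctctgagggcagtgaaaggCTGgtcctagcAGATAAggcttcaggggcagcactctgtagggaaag
SSBP3: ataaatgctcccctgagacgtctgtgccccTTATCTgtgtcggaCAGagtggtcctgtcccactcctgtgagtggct
HECTD4: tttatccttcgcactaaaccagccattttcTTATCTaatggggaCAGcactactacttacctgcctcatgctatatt
In all 5 of these the words were 8 bases apart.

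The next sequence is shown because it belongs to a classic red cell locus and carries GATA words without the paired CTG. The beta-globin window (chr9:4831518-4831717) is the 200 bp around the summit of a member upstream of HBE1, and its capitals mark 2 GATA words and the word TGCTGAGTCA, a match to the NFE2 motif.
HBE1: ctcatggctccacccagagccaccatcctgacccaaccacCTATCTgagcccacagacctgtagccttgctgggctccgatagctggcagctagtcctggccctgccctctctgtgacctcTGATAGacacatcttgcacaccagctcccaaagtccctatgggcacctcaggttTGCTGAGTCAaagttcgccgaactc
GATA1 and ALAS2, which mark red cell precursors, lie on chromosome X and so outside the rule. The peaks beside them met the other conditions. The GATA1 promoter peak held the paired words 7 bases apart (chrX:42897788-42897863), and an ALAS2 intron peak held them 8 bases apart (chrX:47892474-47892550). The ALAS2 promoter peak held no GATA word within 100 bp of its summit.
GATA1: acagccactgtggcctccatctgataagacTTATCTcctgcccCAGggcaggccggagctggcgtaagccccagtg
ALAS2: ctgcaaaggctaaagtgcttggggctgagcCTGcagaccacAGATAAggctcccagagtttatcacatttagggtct

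Newborn liver peaks shared with spleen alone numbered 6849, whereas 43.3% of all newborn liver peaks overlapped a spleen peak of any kind. Of the 6849, the 1672 members (24.4%, 95% Wilson interval 23.4 to 25.4) had no peak at either later age. Another 1820 (26.6%) were still called at 28 days but not at 180 days, and 3357 (49.0%) were called in adult liver. Over all newborn liver peaks, 17.8% were without a later liver peak. The share was 31.9% among the 32321 peaks of no other newborn tissue, and 11.2% among the 76334 peaks also called in heart, kidney, lung or muscle. The rule used these calls, so no test was made. The share depended on the peaks admitted. It was 33.5% (31.6 to 35.4) with the same number of top peaks taken from every list. It was 3.14% (1.60 to 6.07, 8 members) where newborn liver peaks needed an irreproducible discovery rate (IDR), which measures how far the rank of a peak matches between replicates, of 0.05 or lower, and 12.1% (9.39 to 15.6, 52 members) where peaks of every list did.

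**Figure D1:**
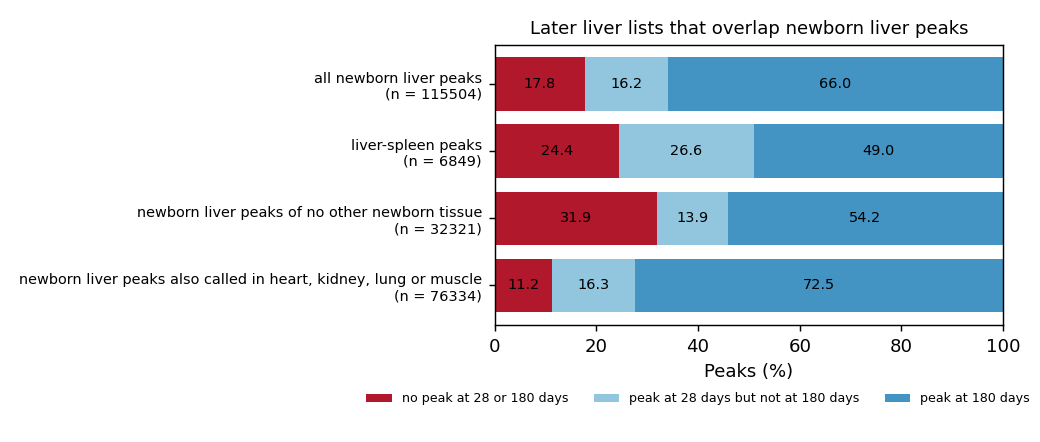
Share of newborn liver peaks (x axis, percent of peaks) with no later liver peak, with a peak at 28 days only, or with a peak at 180 days, for 4 sets of peaks (bars, numbers of peaks in brackets). Peaks shared with spleen alone were lost in 24.4% of cases, between the 11.2% of peaks shared with other tissues and the 31.9% of peaks of no other newborn tissue, and in 3.14% of cases with an IDR of 0.05 or lower required in newborn liver.

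Members were called mostly on full overlaps with spleen. The median overlap was 237.5 bp, 899 members lay wholly inside a spleen peak, and 9 overlapped spleen by 10 bp or less, the smallest by 2 bp. Just outside the rule, 5 peaks were left out by an overlap of 10 bp or less with a 28-day peak alone. A liver peak of either later age lay within 500 bp of 304 members (18.2%) without touching them.

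The members were narrow and weak peaks in liver, as were the other sets of peaks not called in the adult. Their median width was 273 bp (quartiles 194 and 407 bp), against 406 bp in the liver-spleen peaks still called in adult liver and 435 bp in all newborn liver peaks. It was 296 bp in liver-spleen peaks called at 28 days only and 238 bp in lost peaks of no other newborn tissue. Strength was given by the authors as −log10 p for each replicate. In liver the members' medians were 9.18 in replicate 1 and 5.43 in replicate 2, against 17.3 and 7.29 in the peaks still called in the adult and 24.9 and 8.66 in the whole list. They were 7.86 and 6.42 in the liver-spleen peaks called at 28 days only and 7.86 and 5.43 in lost peaks of no other newborn tissue. In spleen their medians were 7.88 and 20.2, against 8.60 and 16.1 in the whole spleen list. By the smaller of the replicate values, the median member stood at percentile 24.5 of the liver list and at percentile 47.7 of the spleen list.

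The IDR was 0.05 or lower for 8 members in liver (0.478%) and for 389 in spleen (23.3%). In liver it was so for 0.659% of the liver-spleen peaks called at 28 days only and 2.23% of lost peaks of no other newborn tissue. It was so for 19.2% of all newborn liver peaks and 25.8% of all newborn spleen peaks. The replicates were unequal in both tissues. Replicate 1 was the stronger for 77.3% of members in liver and for 13.04% in spleen, and for 79.8% and 20.3% of all peaks of these lists. The part of this low strength in the loss of calls after birth was not tested.

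Most members lay away from promoters. Introns held 803 (48.03%), intergenic sequence 638 (38.2%), exons 140 (8.37%) and promoters 86 (5.14%), with promoters taken from 2.2 kb upstream to 500 bp downstream of a start site. Promoters held 7.24% of the liver-spleen peaks still called in the adult, a difference of −2.10 percentage points (95% Newcombe interval −3.43 to −0.665). The peaks of no other newborn tissue that were lost held 3.11% in promoters, 2.03 points below the members (1.01 to 3.24), and all newborn liver peaks held 15.4%. Shares in introns and intergenic sequence had differences from the peaks still called in the adult of 1.59 points (−1.34 to 4.51) and −0.388 points (−3.22 to 2.48), intervals that include 0. Every autosome held members, from 39 to 171, at a density between 0.456 and 1.04 per Mb.

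GATA words were more frequent in the members than in any set of newborn liver peaks compared with them. A word of A or T, then GATA, then A or G (such as AGATAA or TGATAG), on either strand, was found within 100 bp of the summit in 697 of 1672 members (41.7%). The share was 30.0% in liver-spleen peaks still called in the adult, 26.2% in those called at 28 days only, 27.1% in lost peaks of no other newborn tissue, and 23.6% in all newborn liver peaks. The difference from the peaks still called in the adult was 11.7 percentage points (95% interval 8.87 to 14.5) and had this direction on 17 of 18 autosomes, which are blocks of 1 genome and not replicates. The odds ratio was 2.04 (1.74 to 2.40) in a logistic fit over all 115504 peaks with GC content, width and promoter location as covariates. Against the lost peaks of no other newborn tissue, it was 2.25 (1.95 to 2.59). The same letters written backwards, as a control of composition, were found in 17.8% of members and 19.7% of the peaks still called (odds ratio 1.01, 0.802 to 1.28).

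The difference in GATA share depended on the window, on the peaks admitted and on base composition. With the same number of top peaks in every list it was 5.64 points (1.14 to 10.1), and where every list was limited to peaks with an IDR of at most 0.05 it was 21.4 points (7.64 to 35.4). With whole peaks searched it was −0.589 points (−3.51 to 2.34), where the peaks still called in the adult are wider. In windows of under 45% GC the shares were 45.1% in members and 43.3% in the peaks still called, whereas at 45 to 55% GC they were 46.1% and 30.7%, and at 55% GC or more 33.5% and 17.2%.

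The paired words of the GATA1 and TAL1 complex had the highest odds ratio in members of all words fitted. CTG with 7 or 8 bases before AGATAA, on either strand, was found in 85 members (5.08%), in 0.804% of the liver-spleen peaks still called in the adult and in 0.797% of all newborn liver peaks. The pair contains a GATA word, so each match is also a GATA match. The odds ratio was 7.48 (4.33 to 12.95) against the peaks still called in the adult, 6.97 (4.79 to 10.2) against lost peaks of no other newborn tissue, and 2.97 (1.93 to 4.57) against liver-spleen peaks called at 28 days only, 1.81% of which held it. Its share was higher in members in each band of GC content, with 4.87, 4.99 and 5.34% against 0.945, 0.906 and 0.518% of the peaks still called.

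The KLF word CCNCACCC was found in 15.7% of members, 10.7% of the peaks still called and 10.8% of all newborn liver peaks (odds ratio against the peaks still called 1.38, 1.17 to 1.63). Against liver-spleen peaks called at 28 days only the ratio was 1.11, with an interval from 0.907 to 1.35. The word of SPI1, a factor of myeloid and B cells, is GAGGAAGT. It was found in 4.31% of members, less often than in the peaks still called (7.54%, odds ratio 0.530, 0.427 to 0.657) and in those called at 28 days only (9.51%, odds ratio 0.428, 0.296 to 0.619). It was more frequent in members than in lost peaks of no other newborn tissue (1.68%, odds ratio 2.66, 1.92 to 3.69).

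Words of hepatocyte factors were at or below their level in all newborn liver peaks. FOXA (TGTTTAC) was found in 2.81% of members, 3.90% of the peaks still called, 4.88% of lost peaks of no other newborn tissue and 4.55% of all. Against the lost peaks of no other newborn tissue the odds ratio was 0.587 (0.437 to 0.787), against the peaks still called it was 0.868 (0.606 to 1.24), and against liver-spleen peaks called at 28 days only it was 1.52 (0.980 to 2.37). HNF4 (CAAAGTCCA) was found in 0.359% of members, 0.330% of liver-spleen peaks called at 28 days only (odds ratio 1.14, 0.356 to 3.65) and 0.988% of all. CEBP (TTGCNNAA) was found in 11.06% of both members and all peaks. For NFE2 (whose word contains the AP1 word TGANTCA) the share was 1.32% in members, 1.31% in the peaks still called and 0.726% in all. RUNX (TGTGGT) was found in 20.99%, 19.8% and 14.4%, with an odds ratio against the peaks still called of 1.02 (0.881 to 1.17). A match is a run of letters, and binding was not measured.

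**Figure D2:**
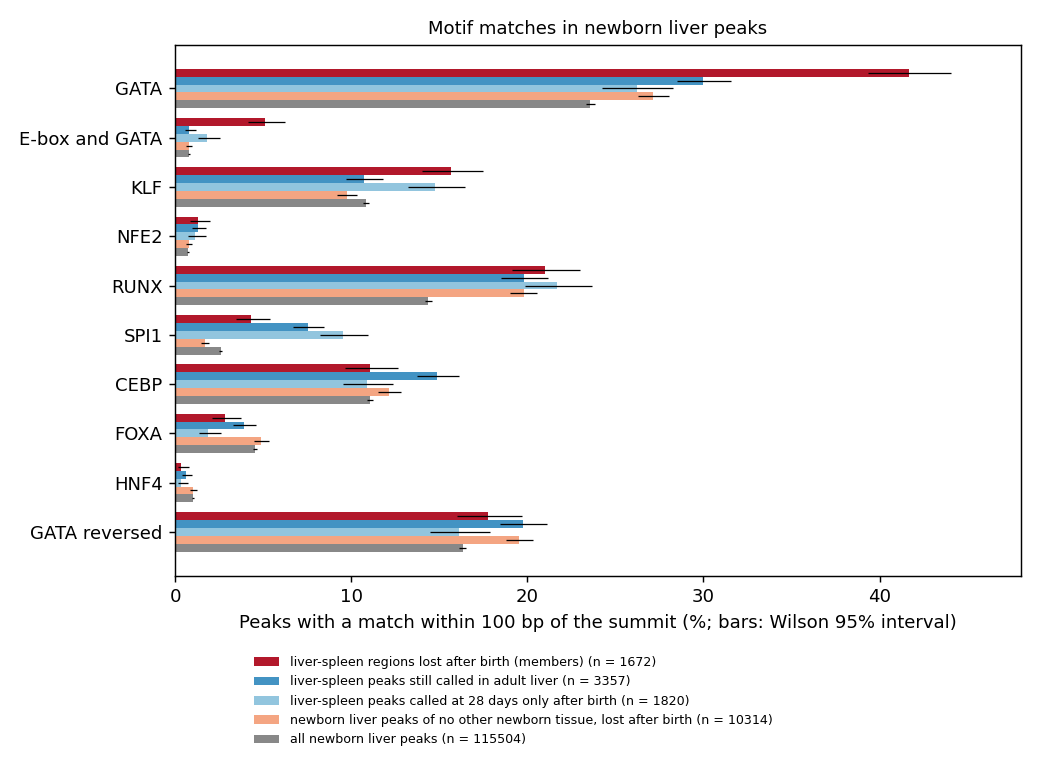
Share of peaks (x axis, percent) with a match within 100 bp of the summit for 10 of the 15 words searched, in the members and 4 other sets of newborn liver peaks, with Wilson 95% intervals. GATA (41.7%) and the paired E-box and GATA words (5.08%) were highest in the members, whereas the SPI1 word was higher in the liver-spleen peaks called later.

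The spacing of the pair was then examined at every distance from 0 to 20 bases, a range chosen after the share of the pair had been seen. Among members, 58 (3.47%, 2.69 to 4.46) held the words 8 bases apart and 28 (1.67%, 1.16 to 2.41) held them 7 bases apart. No other spacing exceeded 1.02%. In the liver-spleen peaks still called in the adult, 0.506% and 0.298% held them at 8 and 7 bases, within the range of their other spacings. The liver-spleen peaks called at 28 days only had 1.10% at 8 bases, their highest share at any spacing examined.

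GATA words also gathered at the summits of members. There were 8.37 matches per 100 members in the 20 bp just past the summit and 7.95 in the 20 bp before it, against 3.05 and 3.41 in the outermost 20 bp on either side, up to 200 bp away. Peaks still called in the adult had 3.84 and 3.69 matches per 100 at the summit and 2.86 and 3.31 at the edges. Lost peaks of no other newborn tissue had 3.42 and 3.60, then 3.10 and 3.58. At least 2 GATA words were found in 16.4% of members and in 6.58% of the peaks still called.

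**Figure D3:**
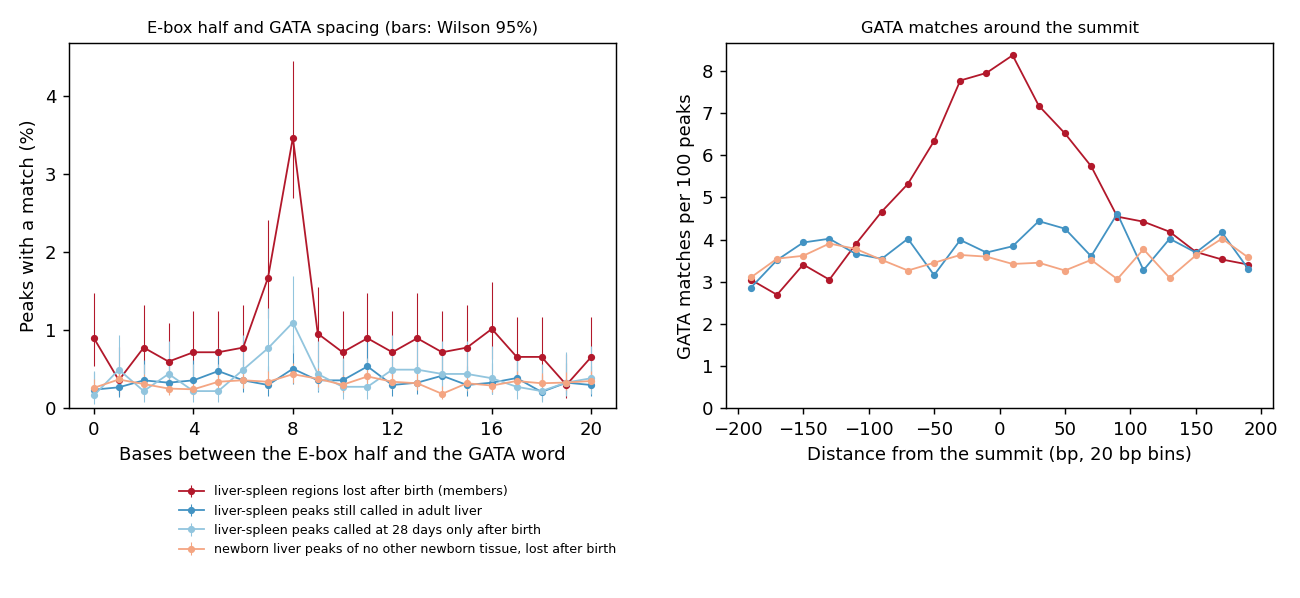
Left, share of peaks (y axis, percent, with Wilson 95% intervals) that hold CTG and AGATAA at each spacing in bases (x axis); right, GATA matches per 100 peaks (y axis) by distance from the summit in 20 bp bins (x axis). Members stand out at 8 bases (3.47%) and at the summit (8.37 per 100 peaks). Liver-spleen peaks called at 28 days only also had their highest share at 8 bases (1.10%), and their matches by distance from the summit are not given. Peaks still called in the adult and lost peaks of no other newborn tissue stay near their levels elsewhere.

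Members with these words were the stronger ones, above all in spleen. The 85 with the pair had median −log10 p of 27.9 and 6.10 in the replicates of liver and 15.4 and 82.2 in those of spleen. The 975 without a GATA word had 7.001 and 5.33 in liver and 7.22 and 15.2 in spleen. An IDR of 0.05 or lower in spleen was given to 52.9% of members with the pair, 35.6% of the 697 with any GATA word and 14.5% of those without. By contrast, 50.6% of members with the pair and 48.1% of those without a GATA word lay in introns.

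Genes of red cell precursors had members nearby more often than genes at large. Of 71 autosomal genes in 6 lists of red cell function, 38 (53.5%) had a member within 50 kb of a start site, against 11.9% of all 18708 protein-coding genes. Peaks shared with spleen and still called in the adult lay near 20 of the 71 (28.2%), against 20.1% of all genes. Those called at 28 days only lay near 21 (29.6%), against 12.5%. Lost peaks of no other newborn tissue lay near 40 (56.3%), against 44.1%. In promoters, members were found at 8 of the 71 (11.3%), against 0.476% of all genes. These lists were written with earlier results of these data known, and genes that share a locus share regions, so the counts are a description.

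The 57 members beside these genes held GATA words in 66.7% of cases (53.7 to 77.5), and the other 1615 members in 40.8% (38.4 to 43.2). Their spleen IDR was 0.05 or lower in 47.4% and 22.4% of cases, respectively. Median −log10 p in the 57 was 28.4 and 5.80 in liver and 15.4 and 95.8 in spleen.

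Among transcription factors, 6 of 11 genes had a member within 50 kb. NFE2, a factor that acts at the globin loci, had 3 members. The one at chr5:19497730-19498001, 95 bp upstream of an annotated start (−95), had −log10 p of 34.0 and 21.7 in the liver replicates and 58.7 and 96.3 in the spleen replicates, and it held 3 GATA words and the pair. That start is not the gene start used for the map of peaks, from which this member lies at 3808 to 4080 bp. The newborn liver peak over the gene start, at −58 to 185 bp, was no member. BCL11A, known in humans as a repressor of fetal globin, had 3 members in introns, 1 of which held a GATA word (32.3 and 6.94 in liver). TAL1 had 2, of which the one at 18863 bp from its start, nearer to PDZK1IP1, held 2 GATA words and reached 55.7 and 7.18 in liver and 6.09 and 115 in spleen. The others were single members near SOX6, ZFPM1 and KLF1, the last 37641 bp from the start.

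In haem synthesis and iron supply, 5 of 14 genes had members. The member at UROS, which encodes uroporphyrinogen III synthase, had the highest values of this list in liver replicate 1 and in spleen, with 94.0 and 4.596 in liver and 100.5 and 234 in spleen, and it held 2 GATA words. SLC25A37, the mitochondrial iron importer, had 2 upstream members that reached 51.9 and 82.6 in liver replicate 1 but 5.80 and 7.76 in replicate 2. STEAP3, which reduces iron in endosomes, had 2, and UROD had 1.

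All 8 genes of the globin and gas transport list had members, although HBB and HBE1 share 5 of them and HBZ, HBM and HBQ1 share 3. At the beta-globin locus the member upstream of HBE1 (−11375), whose window is printed above, had 78.6 and 4.91 in liver and 76.5 and 154 in spleen. Another, at chr9:4808559-4808801, held the pair and had 78.5 and 9.33 in liver and 7.41 and 222 in spleen. It was classed as exonic, nearest to LOC100515788. The pair with its flanks (77 bases) overlapped an annotated exon by 30 bases. The peak at the HBB promoter was no member, since it was still called at 28 days (7.87 and 22.0).

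At the alpha-globin locus, a member in an intron of NPRL3 (chr3:41523083-41523511), a gene whose introns are known to hold globin regulatory elements, had 63.3 and 8.31 in liver and 88.9 and 161 in spleen. AHSP, which stabilises free alpha-globin, had a member over its start with 3 GATA words (42.1 and 8.68 in liver, 22.1 and 83.2 in spleen). BPGM, which makes the bisphosphoglycerate that lowers oxygen affinity, had 1 with the pair, in an intron of its neighbour AKR1B1. Globin genes are similar copies, so the placement of reads among them is uncertain.

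RHAG, a membrane channel of red cells, had 3 members. The one with the pair, at chr7:43736694-43737540, had 97.6 and 7.95 in liver and 66.1 and 241 in spleen. Its other members had 39.4 and 5.43, and 6.0005 and 5.43, in liver.

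Of 14 membrane and skeleton genes, 9 had members. SLC4A1, the anion exchanger, had 3, at −8419, −76 and 1640 bp from its start, each with 1 GATA word. Their liver values were 27.6 and 8.14, 33.7 and 9.88, and 56.4 and 11.4, and in spleen replicate 2 they lay between 108 and 118. ADD2, beta-adducin, had one 188 bp past a start with 2 GATA words (62.1 and 4.38 in liver), and TMOD1, which caps actin filaments, had one with 2 GATA words (52.5 and 12.8). KEL, ERMAP, EPB41 and ICAM4 had 1 each.

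Red cell maturation genes had members in 8 of 14 cases. BNIP3L, a receptor for the clearance of mitochondria, had 3, 2 of them within 1062 bp past a start. XPO7, a nuclear export receptor, had 1 with 3 GATA words (29.4 and 4.05 in liver, 55.9 and 185 in spleen). TRIM10 had 2, of which the promoter one reached 55.1 and 8.09 in liver and 7.01 and 193 in spleen. TRIM58, E2F4, MXI1 and TFDP2 had 1 each, and PRDX2 shares the member near KLF1. Of 10 genes of erythropoietin signalling, JAK2 and SOCS3 had members, and none of these 3 regions held a GATA word.

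**Figure D4:**
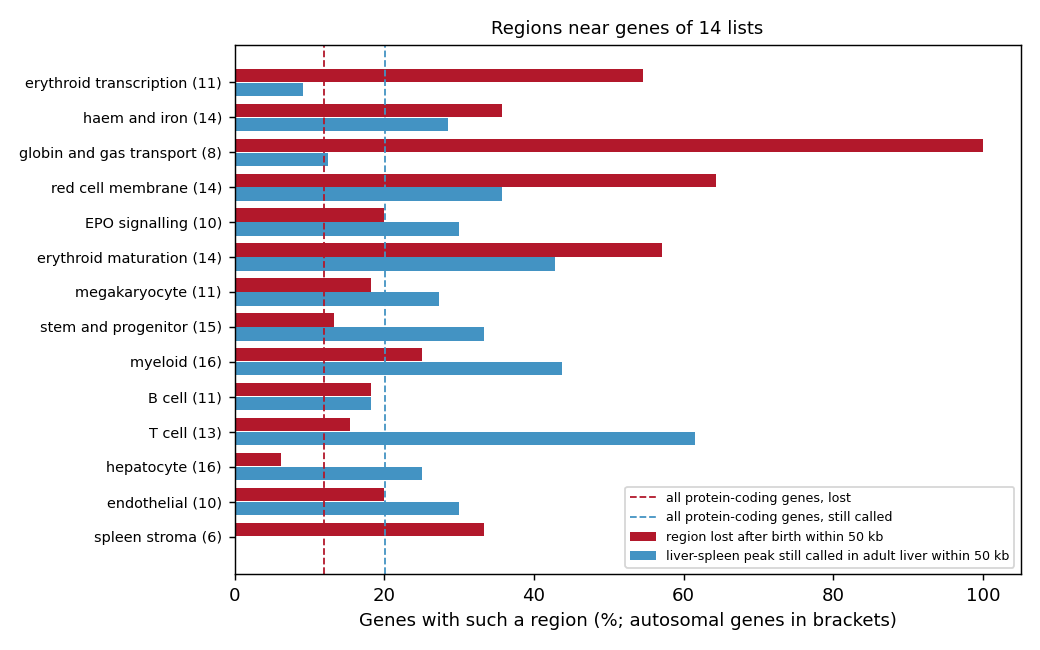
Share of the autosomal genes of each of 14 lists (x axis, percent; number of genes in brackets) with a member (red) or a liver-spleen peak still called in adult liver (blue) within 50 kb of a start site, with dashed lines at the shares of all protein-coding genes (11.9% and 20.1%). Members were near all 8 globin and gas transport genes and near 1 of 16 hepatocyte genes, whereas T cell genes had more of the peaks still called.

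Each list of another cell type that liver or spleen could hold had members near a smaller share of its genes than 5 of the 6 red cell lists. The exception was the erythropoietin signalling list, with 2 of 10 genes. The counts were 2 of 11 megakaryocyte genes, 2 of 15 stem and progenitor genes, 4 of 16 myeloid, 2 of 11 B cell and 2 of 13 T cell genes. Hepatocyte genes had 1 of 16 (APOA1), endothelial genes 2 of 10 and genes of the spleen stroma 2 of 6. Apart from the hepatocyte list, all these shares were above the 11.9% of all protein-coding genes. The share of the spleen stroma list (33.3%) was close to that of the haem and iron list (35.7%). In the T cell list, 8 of 13 genes had a liver-spleen peak still called in the adult, and in the myeloid list 7 of 16, against 20.1% of all genes. The strongest member of these lists in both replicates of spleen was in an intron 25895 bp from the start of LYL1, a relative of TAL1 (43.6 and 9.45 in liver, 66.9 and 165 in spleen), with 2 GATA words.

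The defining markers were checked by promoter peaks in all 8 lists. GATA1 had one in newborn liver (20.4 and 3.47) and spleen (19.1 and 46.1). Newborn kidney (8.03 and 6.38) and liver at 28 days (5.63 and 4.14) had GATA1 promoter peaks at another site. These lay at −1524 to −1114 and −1373 to −1247 bp from the start, and the newborn liver peak at −768 to 62 bp. ALAS2, the first enzyme of haem synthesis in red cells, had promoter peaks in newborn liver (22.5 and 3.77) and spleen (17.6 and 53.8), and none in the other lists. NFE2 had promoter peaks in newborn liver, spleen, kidney, lung and muscle and in liver at 28 days. Those of kidney, lung, muscle and liver at 28 days lay over the gene start, away from the NFE2 members. None of these 3 genes had a promoter peak in adult liver. Across 74 red cell genes including those on X, promoter peaks were listed for 66 in newborn liver (89.2%, against 73.8% of all protein-coding genes), 68 in spleen (91.9%, against 69.0%), 60 in liver at 28 days (81.1%, against 75.1%) and 54 in the adult (73.0%, against 69.9%). In the other newborn tissues they were listed for 46 in muscle (62.2%, against 61.7%), 51 in heart (68.9%, against 68.1%), 53 in lung (71.6%, against 70.7%) and 62 in kidney (83.8%, against 75.4%). The genes without a promoter peak in newborn liver were KLF1, TFRC, ICAM4, RHAG, HBZ, HBE1, KEL and ERMAP. Of these, KLF1, TFRC and ICAM4 had one in newborn spleen.

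On chromosome X, 50 of 162 liver-spleen peaks met the other conditions and 55 were called in adult liver. GATA words were found in 18 of the 50. Besides the GATA1 promoter peak, these 18 included an ALAS2 intron peak 3503 bp past the start (40.5 and 7.29 in liver, 42.8 and 132 in spleen). Shares of GATA words in other peaks on X are not given, so the count is a description without a comparison.

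The map of peaks around 4 red cell genes shows how members lie among other peaks. Within 12 kb of the RHAG start, newborn liver had 3 peaks, all of them members, and spleen had 5, against 1 at 28 days and 0 in the adult. Around AHSP there were 4 in newborn liver, of which the 1 over the start was a member, 3 in spleen, 4 at 28 days and 3 in the adult. At NFE2, newborn liver had 7 peaks, of which 3 were members, and liver at 28 and 180 days had 4 and 3. SLC4A1 had 5 peaks in newborn liver and in spleen and 1 at each later age, at the edge of the window.

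Members were spread over many genes. Over all 1672, the median distance to the nearest protein-coding start was 21043.5 bp. Of them, 1454 lay within 100 kb of that start, and 1281 genes were the nearest to at least 1 of these. Of those genes, 1136 had a single member and 26 had 3 or more. HECTD4 and UXS1 had 4 each. At HECTD4 the members were all in introns, and the one with the pair (chr14:39361395-39361771) had 37.4 and 7.95 in liver and 45.6 and 134 in spleen. NFE2, SLC4A1, RHAG, ITGA11, WDR26, BCAS3, RNF2 and KIAA1551 were among 24 genes with 3.

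By the smaller −log10 p in liver, the strongest members included those nearest to LOC106508706 (39.4 and 30.2), GCFC2 (215 and 29.2), MDN1 (64.1 and 21.9), NFE2, DOCK10 (238 and 18.7), C9H1orf116, LOC102161210, ITGA11 and SSBP3. They fell into different patterns in spleen. The members near LOC106508706, GCFC2, MDN1 and DOCK10 had spleen values between 3.28 and 14.7 in both replicates, and 2 of these 4 held a GATA word. The other 5 had between 41.5 and 121 in spleen replicate 1 and between 80.6 and 199.6 in replicate 2, and all 5 held a GATA word.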

How the data were processed

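Peaks were taken from the 8 deposited lists, 1 per group. According to the methods, the authors aligned reads to Sscrofa11.1 with Bowtie2, removed duplicates with SAMtools (1.3.1 in the submitters' processing notes), called peaks in each replicate with MACS2 and merged replicates by IDR. The deposited columns hold the −log10 p of each replicate, a −log10 IDR and a score scaled from it. A signal value and a q-value column hold a constant and were not used. Strengths were described within a list only, since they depend on depth. Positions are counted from 1. Genes came from RefSeq for Sscrofa11.1. Members and gene lists were chosen with earlier results of these data known. Genes were named as the 10 strongest members in liver, the 10 genes with most members, list genes with a member within 50 kb, and GATA1, ALAS2 and NFE2. Shares have Wilson and differences Newcombe 95% intervals, which cover counting error only and treat peaks as independent. Odds ratios came from a logistic fit (statsmodels 0.14.6) with GC content and its square, log2 width and promoter location as covariates, and errors clustered over 18 autosomes. Each list pools 2 libraries, so no comparison has an error over animals. List genes without a match on a placed chromosome were left out. Some genes and sequences that these rules select are not reported here. Checks on simulated data covered the overlap of intervals, the search for the paired words and a simpler form of the logistic fit. The other steps were not checked in this way.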

Additional observations from a re-analysis of the deposited data

How the results depend on the processing

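Of 47 alternatives, 27 left their result in the same direction, with its interval on the same side of 0 or its value within the spread allowed, though some of these moved in size. Some of the 27 only gave the same peaks the intervals of 1 replicate, so little change could follow. With an IDR of 0.05 or lower required in newborn liver, 8 members were left, 3.14% of liver-spleen peaks were lost, the GATA difference was 16.8 points with an interval that includes 0 (−12.3 to 45.9), and 12.5% lay in promoters. Required in every list, it left 52 members, 12.1% lost, 7.69% in promoters and a GATA difference of 21.4 points. With the top 54830 peaks of every list there were 829 members, 33.5% lost, 7.5995% in promoters and 44.99% in introns, and the GATA difference was 5.64 points. The lost share was 25.6% where spleen had to cover the larger part of the peak, and 21.5% where no excluding peak lay within 500 bp. The GATA difference turned to −0.589 with whole peaks searched, and the control with reversed letters gave −1.99. A narrower promoter (1000 bp upstream, 100 bp downstream) held 2.93%, and introns of all annotated genes 53.1%. Adult-called peaks in place of members lay near 28.2% of the red cell genes in place of 53.5%. Where these values moved, the cause was not tested. With each peak given the interval and summit of 1 replicate alone, members numbered 1753 to 1754 and the lost share was 25.5%. The GATA difference was then 9.11 to 12.04 points, the promoter share 4.90 to 5.13% and the intron share 49.2 to 49.6%. The peaks were still those matched in both replicates, so no replicate was left out. These values therefore cannot show the results without an animal. No paired analysis was possible because the lists hold only peaks matched in both replicates of a group, and no result comes from a test over samples. Without the members near red cell genes, an alternative added after seeing the data, the GATA difference was 10.8 points. A peak missing from a list was not called, and the lists hold no read counts with which to say more.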
